A study of Brachypodium distachyon with 35 samples.

Results

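Seedlings of *Brachypodium distachyon* exposed to cadmium for 24 h (Cd-24h) and for 6 h (Cd-6h) were compared with control seedlings (CK3). All 96 BdbZIP genes of the series were followed in these 3 of its 35 samples. The samples were chosen by their labels, and the labels name CK3 as the control of the cadmium samples. The series measured the BdbZIP genes by quantitative real-time PCR in seedlings under environmental stresses, heavy metals and hormones, and in 4 organs, with 1 sample per condition. Plants of all 3 samples were of the line Bd21-3 and grew on agar medium. The sample labels give an age of 20 days, and the study's methods call the seedlings 2-week-old. Cadmium was given as 0.07 mM CdCl2 for 24 h or 6 h, and the labels name no treatment for CK3. How many seedlings made up a sample is not given in the sources used here. The comparison asks which members of the family differ in expression under cadmium and whether the 2 times differ.

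The basic leucine zipper (bZIP) proteins are transcription factors that bind DNA as dimers, through a basic region followed by a zipper of leucines. In plants, different classes of them act in abscisic acid (ABA) signalling, defence, seed development, zinc supply and the response to unfolded proteins in the endoplasmic reticulum (ER). Cadmium is a metal with no known nutritional use in land plants, which binds to thiol groups and displaces other metals from proteins.

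Ct is the cycle in which the amplified product becomes detectable. Since the product about doubles in each cycle, 1 cycle less stands for about 2-fold more template. The level of a gene was taken as minus its Ct relative to that of BdGAPD, a glyceraldehyde-3-phosphate dehydrogenase gene used as the reference, and is on the log2 scale. The log2 change was the level under cadmium minus the level in CK3. Each sample gives 1 Ct per gene, so there was no replicate spread and no test of a single gene against CK3. Technical error was judged from 8 pairs of BdbZIP genes that were amplified with identical primers. Over 27 treated samples these pairs gave an SD of 0.97 for a single log2 change, and in the 2 cadmium samples an SD of 1.13. Variation between plants and the error of the BdGAPD Ct are not part of this SD.

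Ct of the 96 genes ran from 20.46 to 39.75 in the 3 samples. Their median was 28.8 in Cd-24h and 30.2 in Cd-6h, against 26.4 in CK3. BdGAPD had a Ct of 22.04 in Cd-24h and 23.24 in Cd-6h, against 20.08 in CK3. The BdGAPD Ct of Cd-6h was the highest of 34 samples, and that of Cd-24h the third highest, with 14.73 to 22.89 in the others. The reference and most BdbZIP genes thus appeared later under cadmium than in CK3. Whether less RNA or a lower expression of BdGAPD made it so cannot be told apart with these values. A shift of BdGAPD moves all 96 changes of a sample alike, so results are given below without it as well.

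**Figure D1:**
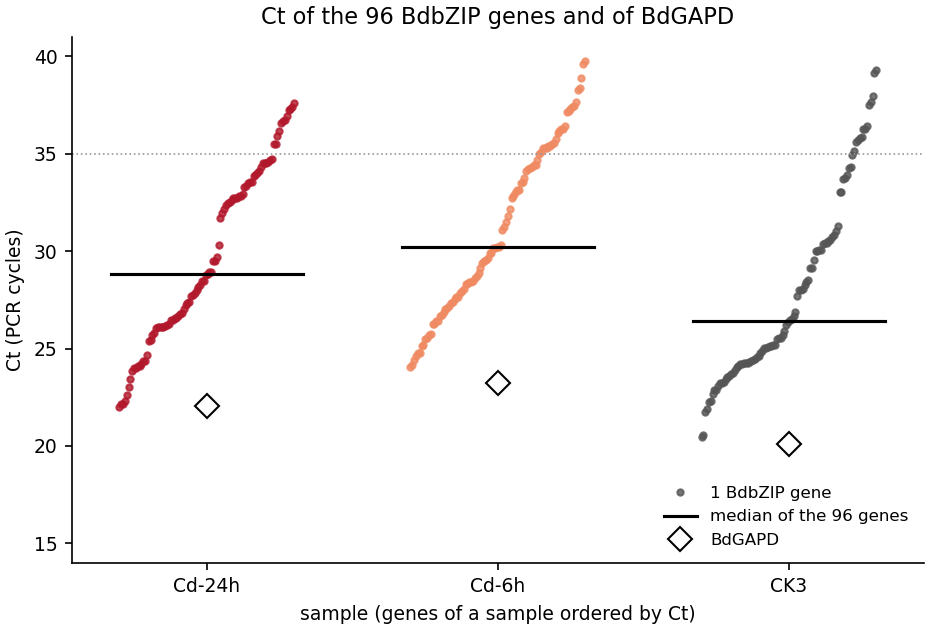
Ct (PCR cycles, vertical axis) of the 96 BdbZIP genes in Cd-24h, Cd-6h and CK3, each dot 1 gene, with genes ordered by Ct within a sample, the median as a bar, BdGAPD as a diamond and a dotted line at a Ct of 35. The medians lie at 28.8, 30.2 and 26.4 cycles in Cd-24h, Cd-6h and CK3, and BdGAPD lies at 22.04, 23.24 and 20.08 cycles.

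After 24 h of cadmium, 28 of the 96 genes exceeded CK3 by 2-fold or more (29.2%) and 29 were at most 0.5-fold of it (30.2%). After 6 h the counts were again 28 higher (29.2%) and 29 lower (30.2%). The median log2 change was 0.18 at 24 h and -0.18 at 6 h, with changes from -2.88 to 5.16 at 24 h and from -3.52 to 5.01 at 6 h. The 2 times share the CK3 sample, so a high or low value of a gene in CK3 enters both. With this in view, 21 genes were at least 2-fold higher at both times (21.9%) and 21 were at most 0.5-fold at both (21.9%). At 24 h alone, 7 genes were higher and 7 were lower, while at 6 h alone 6 genes were higher and 8 were lower. A further 25 genes stayed within 2-fold of CK3 at both times. BdbZIP41 was lower at 24 h and higher at 6 h. Just inside the thresholds at 24 h were BdbZIP55 (1.02) and BdbZIP10 (-1.04), and just outside were BdbZIP11 (0.85) and BdbZIP64 (-0.87). At 6 h BdbZIP40 (1.06) and BdbZIP30 (-1.05) lay just inside, and BdbZIP2 (0.95) and BdbZIP59 (-0.98) just outside. The limit that holds 95% of a normal spread with the SD of the cadmium samples is 2.22, and 12 genes were above it and 7 below minus it at both times. The 12 include BdbZIP8 and BdbZIP9, which share primers, and genes with a late Ct in CK3, such as BdbZIP17 (39.12) and BdbZIP60 (39.29). No gene of the same-primer pairs had a Ct above 33.72 in CK3, so the SD may not hold for such late genes.

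**Figure D2:**
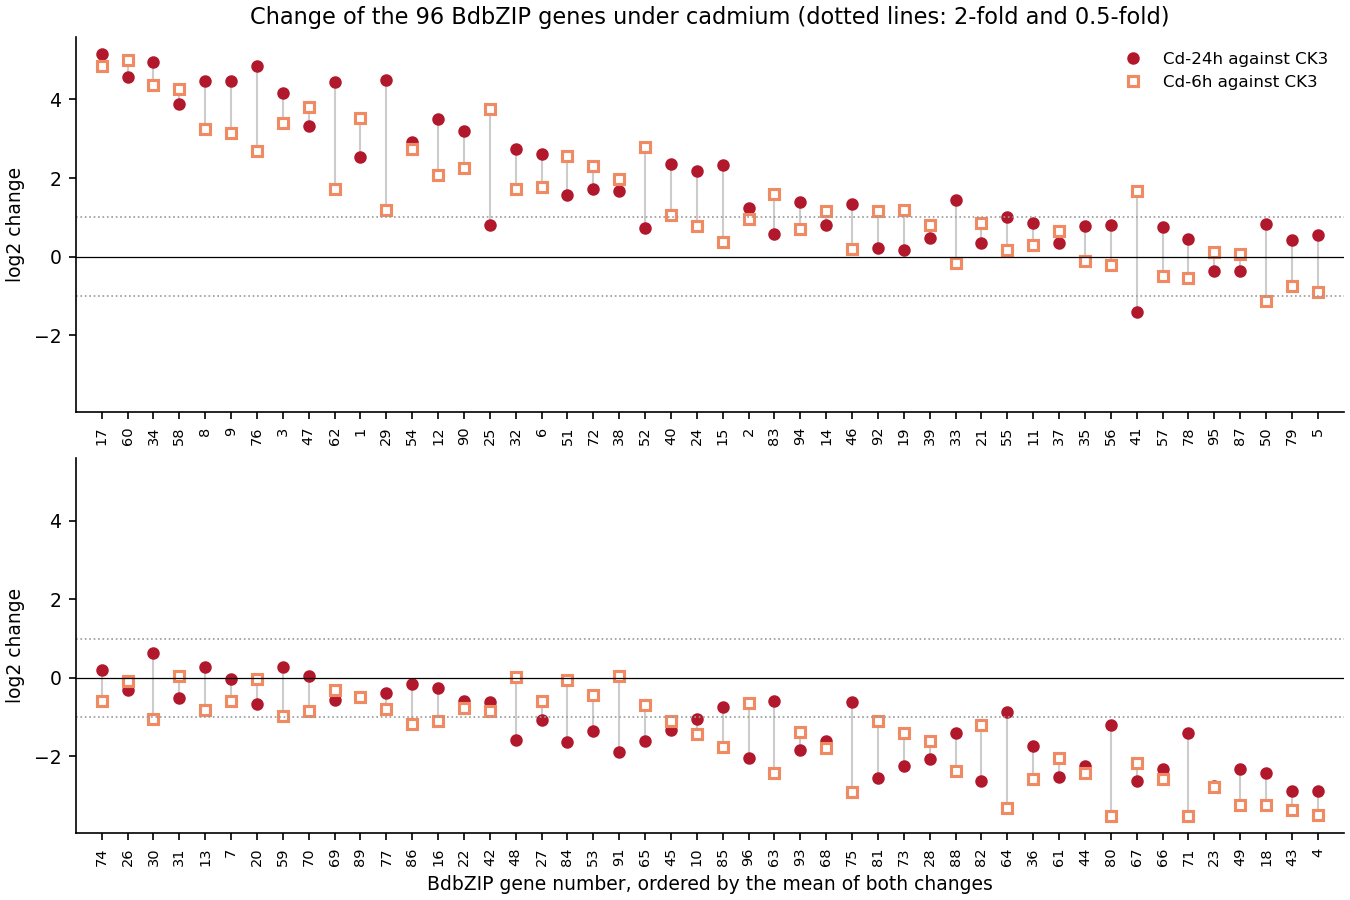
Log2 change against CK3 (vertical axis) of each of the 96 BdbZIP genes (gene number on the horizontal axis, ordered by the mean of both changes) in Cd-24h (filled circles) and Cd-6h (open squares), with dotted lines at 2-fold and 0.5-fold. The 21 genes past 2-fold at both times stand toward the left of the upper row. The 21 genes past 0.5-fold at both times stand toward the right of the lower row. Other genes stand among them, such as BdbZIP25 (0.80 at 24 h) and BdbZIP64 (-0.87 at 24 h). BdbZIP41 is the gene past the thresholds in opposite directions.

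The counts depended on the control. Over the 96 genes the median level was -6.76 in Cd-24h and -6.98 in Cd-6h, against -6.34 in CK3, while the other 2 controls of the series, CK1 and CK2, had medians of -9.32 and -9.725. Of the 21 genes higher at both times, 16 were also at least 2-fold higher at both times than CK1 and 17 than CK2. Most of the family was so too, with 64 of all 96 genes against CK1 and 67 against CK2. Of the 21 genes lower at both times, 4 were also lower than CK1 and 4 than CK2, beside 7 and 4 of all 96 genes. The counts depended on the reference in the other direction. With no reference gene, 4 of the 21 higher genes stayed at least 2-fold higher at both times, 13 of them at 24 h, and all 21 lower genes stayed lower. Over all 96 genes, 4 were then higher and 66 lower at both times. With the median of the 96 genes as the reference, 21 of the higher and 11 of the lower genes kept their calls at both times. Over all 96 genes, 28 were then higher and 11 lower at both times.

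The ER stress class holds 4 genes. AtbZIP28 of Arabidopsis, the closest listed homologue of BdbZIP38, is anchored in the ER membrane, and its cytosolic part moves to the nucleus when unfolded proteins build up. AtbZIP49, the listed homologue of BdbZIP8 and BdbZIP9, belongs to the same group in Arabidopsis. OsbZIP50, the listed homologue of BdbZIP15, is a rice factor whose transcript is spliced by IRE1 under ER stress. All 4 genes were at least 2-fold higher than CK3 after 24 h of cadmium, and 3 of the 4 after 6 h, beside 29.2% of the 96 genes at either time. The median change of the class was 3.40 at 24 h and 2.56 at 6 h, against 0.18 and -0.18 over all genes. Without a reference the medians of the class were 1.44 at 24 h and -0.60 at 6 h, against -1.78 and -3.34 over all genes. BdbZIP8 and BdbZIP9 share primers and have overlapping positions on chromosome 1, so they count as 1 product measured in 2 wells, and the class rests on 3 primer pairs.

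BdbZIP8 (bradi1g19700) had a Ct of 22.33 in Cd-24h and 24.75 in Cd-6h, against 24.85 in CK3. Its product appeared earliest at 24 h, and at 6 h as early as in CK3 although BdGAPD appeared 3.16 cycles later there. Relative to BdGAPD it was 22.3-fold higher at 24 h (log2 change 4.48) and 9.58-fold higher at 6 h (3.26). BdbZIP9 (bradi1g19702) repeated these values with Ct of 22.63 in Cd-24h and 25.15 in Cd-6h, against 25.13 in CK3, and changes of 4.46 and 3.14. The 2 wells of this primer pair differed in their changes by 0.02 at 24 h and 0.12 at 6 h. BdbZIP8 was also higher against CK1 (6.61 at 24 h and 5.39 at 6 h) and against CK2 (5.66 and 4.44). With no reference it was 2.52 above CK3 at 24 h and 0.10 above it at 6 h. Against CK3 its call at 24 h thus did not rest on BdGAPD and its call at 6 h did. CK1 and CK2 were not compared without a reference.

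BdbZIP15 (bradi1g35790) had a Ct of 24.37 in Cd-24h and 27.53 in Cd-6h, against 24.75 in CK3. It was 5.06-fold higher than CK3 at 24 h (2.34) and within 2-fold of it at 6 h (0.38). With no reference it was at 0.38 at 24 h and -2.78 at 6 h, so its call at 24 h rested on BdGAPD. BdbZIP38 (bradi2g25400) had a Ct of 24.65 in Cd-24h and 25.55 in Cd-6h, against 24.37 in CK3. Its change was 1.68 at 24 h and 1.98 at 6 h. Both of its Ct were above that of CK3, so its sign was set by BdGAPD, and with no reference its changes were -0.28 and -1.18. Within the class the Ct of all 4 genes lay well below 35 cycles, where amplification is early.

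**Figure D3:**
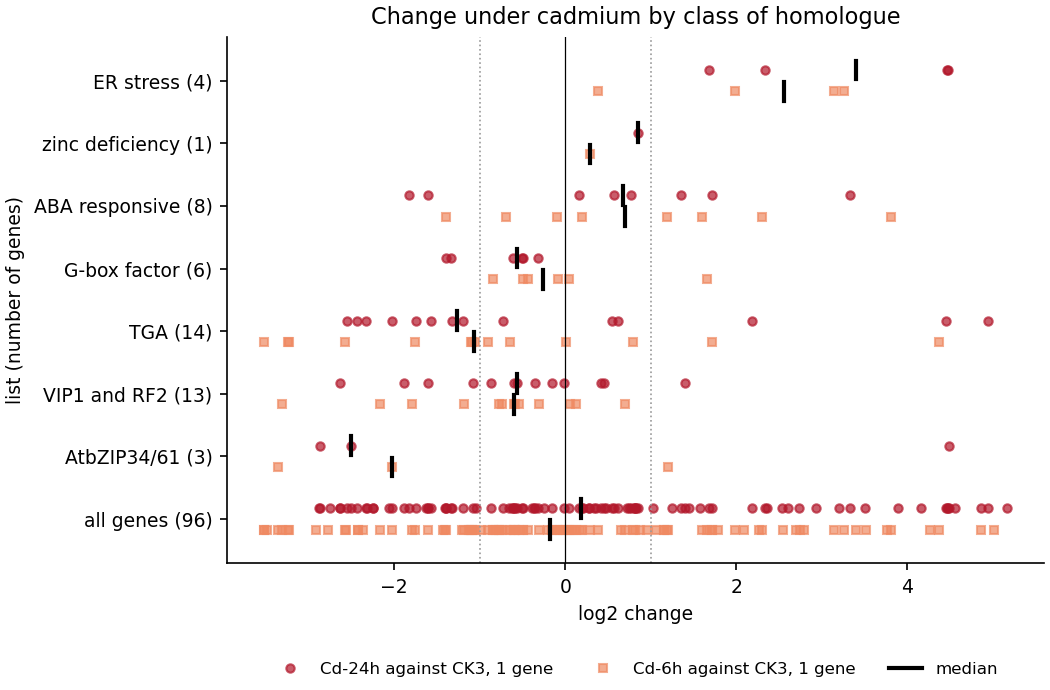
Log2 change against CK3 (horizontal axis) of the genes of 7 classes named after their Arabidopsis or rice homologues and of all 96 genes (vertical axis, number of genes in brackets), in Cd-24h (circles) and Cd-6h (squares), with medians as bars and dotted lines at 2-fold and 0.5-fold. The 4 ER stress genes lie to the right of 2-fold at 24 h, with a median of 3.40, and the TGA class has medians of -1.26 at 24 h and -1.07 at 6 h.

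Beyond the ER stress class, several genes with a Ct below 35 in all 3 samples were higher at both times. BdbZIP12 (bradi1g30750) had a Ct of 22.17 in Cd-24h and 24.79 in Cd-6h, against 23.72 in CK3, and changes of 3.51 and 2.09. It was one of the earliest products of the Cd-24h sample. BdbZIP90 (bradi4g40540) had a Ct of 23.02 in Cd-24h and 25.16 in Cd-6h, against 24.26 in CK3, and changes of 3.20 and 2.26. BdbZIP32 (bradi2g21197) had changes of 2.73 and 1.72, while BdbZIP33, which shares its primers, had 1.45 and -0.16. This pair shows how far 2 wells of 1 product can differ. BdbZIP72 (bradi3g57960), a homologue of OsbZIP66, which acts in ABA-regulated transcription in rice, had a Ct of 23.46 in Cd-24h and 24.07 in Cd-6h, against 23.21 in CK3. Its changes were 1.71 at 24 h and 2.30 at 6 h, and its Ct was not below that of CK3 at either time. BdbZIP62 (bradi3g15590), whose listed homologue AtbZIP57 is a TGA factor of Arabidopsis, had a Ct of 28.79 in Cd-24h and 32.72 in Cd-6h, against 31.28 in CK3. It was 21.9-fold higher at 24 h (4.45) and 3.29-fold higher at 6 h (1.72).

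The 4 highest changes at 24 h, those of BdbZIP17, BdbZIP34, BdbZIP76 and BdbZIP60, belonged to genes with a late Ct in CK3. That Ct is also the value they are set against. BdbZIP17 (bradi1g43660) had a Ct of 35.92 in Cd-24h and 37.42 in Cd-6h, against 39.12 in CK3, which made changes of 5.16 and 4.86. BdbZIP60 (bradi3g07540) had a Ct of 36.69 in Cd-24h and 37.44 in Cd-6h, against 39.29 in CK3, and changes of 4.56 and 5.01. Both genes were near the end of the 40 programmed cycles in CK3, and both were detected earlier under cadmium at each time. BdbZIP34 (bradi2g21380), a TGA class gene, had a Ct of 33.30 in Cd-24h and 35.07 in Cd-6h, against 36.28 in CK3, with changes of 4.94 and 4.37. BdbZIP58 (bradi3g06670) had a Ct of 31.98 in Cd-24h and 32.81 in Cd-6h, against 33.91 in CK3, with changes of 3.89 and 4.26. BdbZIP17, BdbZIP34, BdbZIP58 and BdbZIP60 are the 4 genes that were at least 2-fold above CK3 at both times with no reference gene. At both times BdbZIP34, BdbZIP58 and BdbZIP60 stayed at least 2-fold higher with each of the 3 controls relative to BdGAPD. The same held with each of the 3 references against CK3. No change against CK1 or CK2 was taken with another reference. The mean Ct of these genes in CK1 and CK2 was 31.355, 30.805 and 37.82. For BdbZIP34 and BdbZIP58 this mean was earlier than the Ct under cadmium at either time. BdbZIP17 turned with the control, to -1.61 at 24 h and -1.91 at 6 h against CK1, and to -0.75 and -1.05 against CK2.

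BdbZIP76, a homologue of a rice gene annotated as an ocs element binding factor, changed by 4.86 at 24 h and 2.70 at 6 h, and BdbZIP3 by 4.16 and 3.40. BdbZIP29 changed by 4.49 at 24 h and 1.20 at 6 h. BdbZIP47, whose rice homologue OsbZIP10 is annotated as an ABI5 factor of ABA signalling, changed by 3.33 and 3.81. The last 2 genes thus differed in timing, BdbZIP29 with most of its change at 24 h and BdbZIP47 with about as much at 6 h. BdbZIP29 depended on the control, at -0.10 at 24 h and -3.39 at 6 h against CK1, and 2.63 and -0.66 against CK2. BdbZIP76 was at -1.37 against CK1 and -0.57 against CK2 at 6 h. BdbZIP54 (2.93 and 2.74), BdbZIP6 (2.60 and 1.78), BdbZIP1 (2.53 and 3.52), BdbZIP40 (2.36 and 1.06) and BdbZIP51 (1.58 and 2.55) complete the 21. BdbZIP40 was below CK1 (-1.73 at 24 h and -3.03 at 6 h) and CK2 (-0.79 and -2.09). BdbZIP17, BdbZIP29, BdbZIP40 and BdbZIP76 are the 4 of the 21 genes whose sign turned with CK1 or CK2 at a time. BdbZIP51 has the same primers as BdbZIP50, which was 0.83 at 24 h and -1.13 at 6 h, a difference of 3.68 at 6 h between 2 wells of 1 product. In 10 of the 21 the Ct was 35 or later in 1 or more of the 3 samples. BdbZIP1 had a Ct of 36.92 in Cd-24h and 37.13 in Cd-6h, against 37.49 in CK3, so the Ct itself barely differed and the change followed the BdGAPD Ct.

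Changes were also set against abundance. Genes were grouped by their mean Ct in CK1 and CK2, which enter no cadmium value. The 25 genes at 30 cycles or more had a median change of 0.80 at 24 h and 1.16 at 6 h. The 36 genes below 25 cycles had medians of -0.235 at 24 h and -0.46 at 6 h, and the 35 genes between had -0.35 and -0.20. At 24 h 10 of the 25 rare genes were at least 2-fold higher and 6 lower, against 9 higher and 10 lower of the 36 abundant ones. At 6 h 14 of the rare genes were higher and 8 lower, against 5 higher and 8 lower of the abundant ones. Of the 35 genes between, 9 were higher and 13 lower at each time. Beside these counts stand 29.2% higher and 30.2% lower of all 96 genes at each time. With no reference, the median of the rare genes was -1.16 at 24 h and -2.00 at 6 h, and that of the abundant genes was -2.195 and -3.62. A Ct of 35 or more was found for 12 genes in Cd-24h and 25 in Cd-6h, against 13 in CK3. The part of late amplification in the high changes was not tested. Among the 70 genes with a Ct below 35 in all 3 samples, 11 were higher at both times and 14 were lower. Of all 96 genes 21 were higher and 21 lower at both times.

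Among the genes lower at both times, BdbZIP43 (bradi2g50220) had a Ct of 32.50 in Cd-24h and 34.19 in Cd-6h, against 27.67 in CK3. It was at 0.137-fold of CK3 at 24 h (-2.87) and 0.0974-fold at 6 h (-3.36). Its listed homologue is OsbZIP19, and it falls in the class of AtbZIP34 and AtbZIP61 of Arabidopsis. It was also lower against CK1 (-3.36 at 24 h and -3.85 at 6 h) and CK2 (-1.73 and -2.22). BdbZIP49 (bradi2g55570), a TGA class gene, had a Ct of 34.32 in Cd-24h and 36.43 in Cd-6h, against 30.03 in CK3, with changes of -2.33 and -3.24. BdbZIP43 and BdbZIP49 were the 2 genes at most 0.5-fold at both times under every setting compared. These were each of the 3 controls relative to BdGAPD and each of the 3 references against CK3. The partner of BdbZIP49 with the same primers, BdbZIP48, was at -1.57 at 24 h and 0.01 at 6 h. The 2 wells thus differed by 0.76 at 24 h and 3.25 at 6 h, and the value of BdbZIP49 at 6 h was not repeated by the other well.

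BdbZIP4 (bradi1g12620) had the lowest mean change of all 96 genes. Its Ct was 32.85 in Cd-24h and 34.66 in Cd-6h, against 28.01 in CK3, and its changes were -2.88 and -3.49. BdbZIP23 (bradi1g63840) had a Ct of 28.95 in Cd-24h and 30.17 in Cd-6h, against 24.24 in CK3, and changes of -2.75 and -2.77. The direction of both genes depended on the control. Against CK1, BdbZIP4 was at 3.17 at 24 h and 2.56 at 6 h, and BdbZIP23 at 3.49 and 3.47. BdbZIP18, a TGA class gene, changed by -2.43 at 24 h and -3.23 at 6 h. It was lower at 6 h with each control relative to BdGAPD and with each reference against CK3. BdbZIP67 (-2.63 and -2.16) and BdbZIP82 (-2.63 and -1.21) were among the 5 lowest at 24 h. BdbZIP80 (-1.20 at 24 h and -3.52 at 6 h), BdbZIP71 (-1.40 and -3.52) and BdbZIP64 (-0.87 and -3.31) were among the 5 lowest at 6 h.

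The TGA class groups 14 homologues of factors that act in salicylic acid signalling and defence, and in flower development, in Arabidopsis. Of its genes, 8 were at most 0.5-fold at 24 h and 8 at 6 h (57.1%), beside 30.2% of all genes. At both times 6 of the 14 were so, beside 21.9% of all genes. Of these 6, BdbZIP18 and BdbZIP49 were also at most 0.5-fold of CK1 at both times. BdbZIP36 (2.19 at 24 h and 1.36 at 6 h) and BdbZIP45 (0.55 and 0.78) were above CK1. BdbZIP80 (1.23 and -1.09) and BdbZIP81 (-0.48 and 0.97) differed in sign between the times against CK1. The class median was -1.26 at 24 h and -1.07 at 6 h, against 0.18 and -0.18 over the 96 genes. Without a reference the medians of the class were -3.22 and -4.23, against -1.78 and -3.34 over all genes. BdbZIP48 and BdbZIP49, both among the 8 at 24 h, share primers, so the class rests on 13 primer pairs. The class was not uniform, since BdbZIP34 and BdbZIP62 were higher at both times and BdbZIP24 (bradi1g64060) at 24 h. BdbZIP24, named here after its values were seen, had a Ct of 22.02 in Cd-24h and 24.61 in Cd-6h, against 22.24 in CK3, and changes of 2.18 and 0.79. All TGA class genes but BdbZIP62 carry intron pattern e in the gene list of the study, and no other gene does, so the class and the pattern share 13 genes and are 1 observation. The large patterns, a (23 genes), b (24 genes) and h (27 genes), had medians from -0.15 to 0.80 at 24 h and from -0.54 to 0.82 at 6 h.

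The ABA responsive class holds 8 homologues of factors that bind ABA response elements. Of these, 3 were higher (37.5%) and 2 lower (25.0%) at 24 h, and 4 were higher and 1 lower at 6 h, beside 29.2% and 30.2% of all genes at each time. Its medians were 0.67 at 24 h and 0.695 at 6 h. BdbZIP47 was its highest member and BdbZIP93, at -1.83 and -1.39, its lowest. The G-box factor class holds 6 homologues of light and stress regulators that bind the G-box. Of these, none was higher and 2 were lower (33.3%) at 24 h, and 1 was higher (16.7%) and none lower at 6 h. Beside these stand 29.2% higher and 30.2% lower of all genes at each time. The medians of the class were -0.56 at 24 h and -0.255 at 6 h. BdbZIP53 was its lowest member at -1.34 and -0.43, and BdbZIP41 its highest. The VIP1 and RF2 class of 13 genes takes its name from VIP1 of Arabidopsis, which enters the nucleus under osmotic stress, and RF2a of rice, which binds a viral promoter. It had 1 gene higher (7.69%) and 4 lower at 24 h, and none higher and 4 lower at 6 h. Of all genes 29.2% were higher at each time. The lower genes were 30.8% of the class at each time, beside 30.2% of all genes. Its highest member was BdbZIP94 (1.40 and 0.70) and its lowest BdbZIP67.

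The class of AtbZIP34 and AtbZIP61 held values at both ends. Of its 3 genes, 2 were lower (66.7%) and 1 was higher (33.3%) at each time, beside 30.2% and 29.2% of all genes. BdbZIP43 and BdbZIP61 were lower at both times, BdbZIP61 by -2.51 and -2.03, while BdbZIP29 was higher at both. BdbZIP11 (bradi1g30140) is the single gene whose listed homologue is AtbZIP19, which senses zinc and activates zinc uptake genes under zinc deficiency in Arabidopsis. BdbZIP11 had a Ct of 24.00 in Cd-24h and 25.76 in Cd-6h, against 22.89 in CK3, and changes of 0.85 and 0.29, within 2-fold of CK3 at both times.

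The 2 times were also compared with each other, with no control sample in the comparison. At 24 h, 27 genes had a level 2-fold or more above that at 6 h (28.1%) and 11 were at most 0.5-fold (11.5%). The median difference was 0.345. This split depended on the BdGAPD Ct of the 2 samples, which differed by 1.20 cycles. The deposited normalized values of Cd-24h imply a BdGAPD Ct of 21.5 in place of the 22.04 of the Ct table, and those of Cd-6h imply 23.2, the value of the table. From the normalized values 12 genes were higher and 21 lower at 24 h than at 6 h. With no reference 58 were higher and 2 lower, and with the median of the 96 genes as the reference 20 were higher and 17 lower.

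The 5 genes most in favour of 24 h were BdbZIP29 (difference 3.29), BdbZIP62 (2.73), BdbZIP64 (2.44), BdbZIP80 (2.32) and BdbZIP75 (2.29). BdbZIP29 had a Ct of 33.89 in Cd-24h and 38.38 in Cd-6h, so its product appeared 4.49 cycles earlier at 24 h than at 6 h before any reference. BdbZIP64, BdbZIP80 and BdbZIP75 were below CK3 at both times and nearer to it at 24 h. BdbZIP75 was at -0.62 at 24 h and -2.91 at 6 h. In the ER stress class BdbZIP8, BdbZIP9 and BdbZIP15 were higher at 24 h than at 6 h, by 1.22, 1.32 and 1.96, and BdbZIP38 was lower by 0.30.

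The 5 genes most in favour of 6 h were BdbZIP41 (-3.06), BdbZIP25 (-2.96), BdbZIP52 (-2.07), BdbZIP91 (-1.93) and BdbZIP48 (-1.58). BdbZIP25 had a Ct of 35.49 in Cd-24h and 33.73 in Cd-6h, against 34.33 in CK3, and changes of 0.80 and 3.76. BdbZIP52 changed by 0.72 and 2.79, and BdbZIP91 by -1.88 and 0.05. The same-primer pairs bear on these differences. The difference between 24 h and 6 h was -3.06 for BdbZIP41 and 0.24 for BdbZIP42, which has the same primers, so the 2 wells disagreed by 3.30. For BdbZIP48 and BdbZIP49 the disagreement was 2.49, and for BdbZIP50 and BdbZIP51 it was 2.93. The other 5 pairs disagreed by 0.10 to 1.17. Among these pairs BdbZIP78 (0.45 at 24 h and -0.54 at 6 h) and BdbZIP79 (0.42 and -0.74) were within 2-fold of CK3. BdbZIP22 (-0.60 and -0.77) was so too, while BdbZIP27 (-1.08 and -0.59) was past 0.5-fold at 24 h. BdbZIP94 and BdbZIP95 differed at 24 h (1.40 and -0.35).

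Cadmium was set beside the 4 other metals of the series, Cu, Zn, Mn and Pb, at the same times. All 10 samples share CK3 as control, so levels were compared directly. Doses differ between metals, and each metal has 1 sample per time. Under cadmium 28 genes exceeded CK3 by 2-fold or more at each time, while the other metals had 4 to 10 such genes at 24 h and 3 to 21 at 6 h, the 21 with Cu. The deposited normalized values of Cu and Zn, like those of Cd-24h, imply another BdGAPD Ct than the Ct table, by -0.77 to 0.56 cycles. Taken from them, Cd-24h had 23 higher genes and Cd-6h 28, against 5 to 10 in the other metals at 24 h and 6 to 11 at 6 h, with 6 in Cu-6h. In number of lower genes, Cd-24h had 29 and the other metals 41 to 70 at 24 h. Cd-6h had 29, against 14 to 52 at 6 h. From the normalized values these were 38 in Cd-24h against 25 to 63, and 29 in Cd-6h against 23 to 51. The median level of the 96 genes was 0.58 higher under cadmium than under the other metals, as the mean of both times (exact two-sided permutation test within time, p = 0.44, where the smallest p of the 25 arrangements is 0.04). This test chooses the metal taken as cadmium separately at each time, so the 2 samples of a metal are not kept together. In it, 4 different metals stand in for replicates. The median level was -6.76 in Cd-24h, against -8.80 to -6.675 in the other metals at 24 h. It was -6.98 in Cd-6h, against -8.035 to -5.91 at 6 h.

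Gene by gene, 34 of the 96 genes were at least 2-fold above the mean level of the other metals at both times (35.4%) and 4 were at most 0.5-fold of it (4.17%). With the median of the 96 genes as the reference these counts were 25 and 9, and with no reference they were 0 and 57. Above all 4 other metals at both times were 28 genes, and below all 4 were 2. In the exact test within time, run on each of the 96 genes relative to BdGAPD, 21 genes reached the smallest p of 0.04, all of them higher under cadmium. With the 2 samples of each metal kept together, a p of 0.04 could not be reached. After Benjamini-Hochberg adjustment over the 96 genes the smallest p was 0.18, so no single gene passed. The 5 genes highest against the other metals were BdbZIP58, BdbZIP8, BdbZIP3, BdbZIP92 and BdbZIP9, by 4.85 to 3.96 as the mean of both times.

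BdbZIP8 had a level of -0.29 in Cd-24h, against -5.21 to -4.90 under the other metals at 24 h and -4.77 in CK3. Its level was -1.51 in Cd-6h, against -7.08 to -3.73 under the other metals at 6 h. Relative to BdGAPD, cadmium thus stood apart from all 4 metals at both times, while the 4 metals at 24 h lay within 0.44 of CK3. BdGAPD had a Ct of 22.04 in Cd-24h, against 18.14 to 20.70 in the other metals at 24 h. It had 23.24 in Cd-6h, against 18.23 to 22.89 at 6 h. With no reference, 0 genes were at least 2-fold above the mean of the other metals at both times, so these contrasts depended on BdGAPD. BdbZIP12 changed by 3.51 in Cd-24h, against -1.54 to -0.18 in the other metals, and by 2.09 in Cd-6h, against -0.70 to 0.72. BdbZIP90 changed by 3.20 in Cd-24h, against -1.62 to -0.78, and by 2.26 in Cd-6h, against -1.21 to 0.38. BdbZIP24 changed by 2.18 in Cd-24h, against -3.90 to -1.19, and by 0.79 in Cd-6h, against -1.42 to 1.01, so that the 6 h samples overlapped.

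BdbZIP9 gave the same picture, at 4.46 in Cd-24h against -0.38 to -0.01 in the other metals, and at 3.14 in Cd-6h against -1.57 to 1.26. BdbZIP15 and BdbZIP38 of the same class did not stand apart at both times. BdbZIP15 changed by 2.34 in Cd-24h, against -2.97 to -0.18 in the other metals, and by 0.38 in Cd-6h, against -0.90 to 1.66. BdbZIP38 changed by 1.68 in Cd-24h, against -0.83 to 1.04, and by 1.98 in Cd-6h, against 0.61 to 2.91, where Cu-6h was above cadmium. BdbZIP92 was within 2-fold of CK3 in Cd-24h (0.21) and past 2-fold in Cd-6h (1.16). Under the other metals it was below CK3 (-3.59 to -2.96 at 24 h and -4.13 to -1.17 at 6 h). BdbZIP17 was high under most metals, at 5.16 in Cd-24h against -0.03 to 3.83, and at 4.86 in Cd-6h against 1.33 to 2.50.

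The 5 genes lowest against the other metals were BdbZIP43, BdbZIP49, BdbZIP10, BdbZIP66 and BdbZIP18, by -2.16 to -1.35 as the mean of both times. BdbZIP43 changed by -2.87 in Cd-24h, against -4.12 to 0.08 in the other metals at 24 h. It changed by -3.36 in Cd-6h, against -2.42 to 0.47 at 6 h. The lowest other value at each time was that of Pb, which was below cadmium at 24 h. BdbZIP49 was below all 4 metals at both times, at -2.33 in Cd-24h against -1.67 to 0.91, and at -3.24 in Cd-6h against -2.60 to 0.88, with Cu nearest to it. BdbZIP48, with the same primers, repeated this at 24 h, at -1.57 against -0.93 to 0.77. At 6 h it did not, at 0.01 against -1.95 to 1.36.

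**Figure D4:**
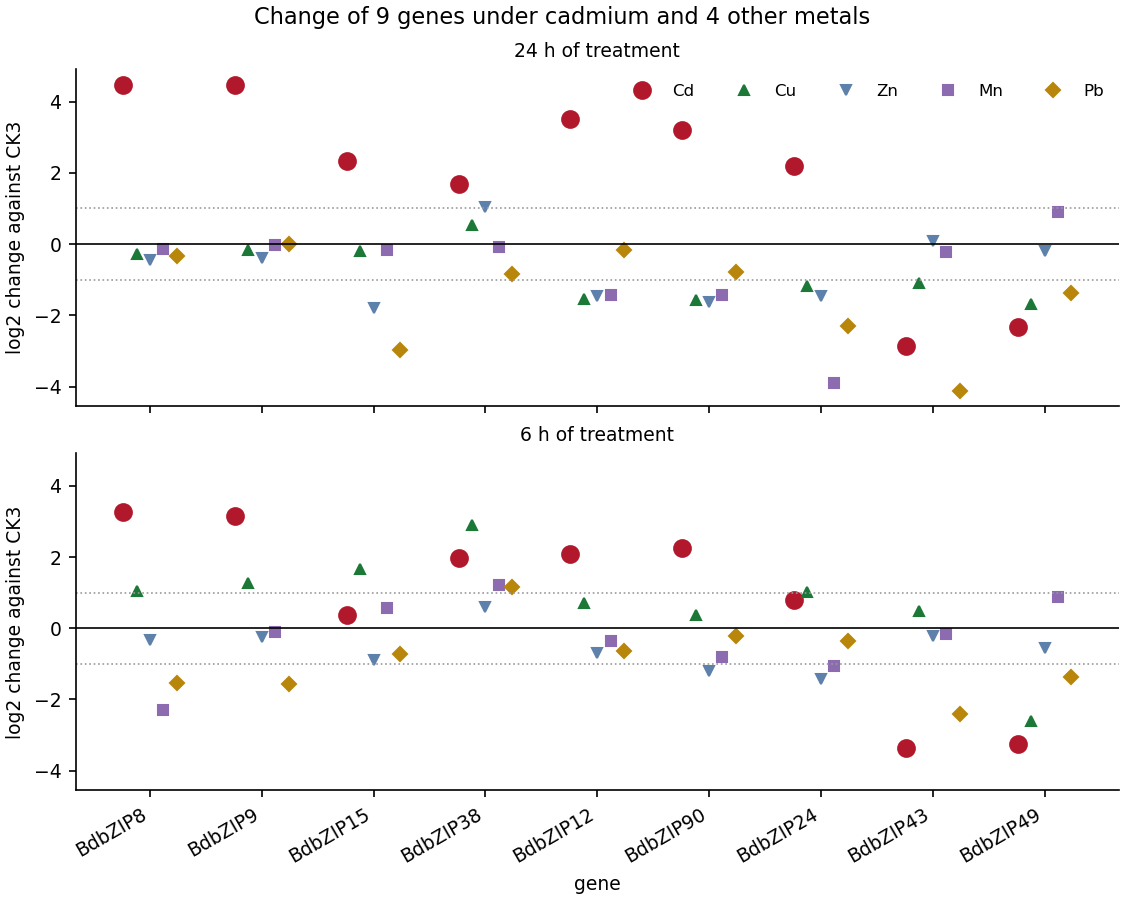
Log2 change against CK3 (vertical axis) of 9 genes (horizontal axis) under Cd, Cu, Zn, Mn and Pb at 24 h (upper panel) and 6 h (lower panel), each symbol 1 sample, with dotted lines at 2-fold and 0.5-fold. Relative to BdGAPD, Cd lies above the 4 other metals for BdbZIP8, BdbZIP9, BdbZIP12 and BdbZIP90 at both times and below them for BdbZIP49 at both times. BdbZIP48, which has the primers of BdbZIP49 and is not shown, did not repeat this at 6 h.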

How the data were processed

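The authors deposited 3 tables for 35 samples. The first holds Ct, 1 per well and sample and unnormalized, the second the normalized expression as a ratio to BdGAPD, and the third the authors' own fold changes, used only to name the wells. How repeated PCR runs were combined is not given in the sources used here. Wells were joined to genes through the 28 fold changes per gene of the study's stress table: each of the 96 genes had 28 of 28 equal to those of 1 well, and at most 1 equal to those of another. The study's tissue table gave the same well for only 1 gene. Genes with identical primers differed by a median Ct of 0.175 to 0.795 under the stress table and 1.08 to 13.6 under the tissue table, so the stress table was kept. None of the gene IDs (0 of 96) was found in the reference gene table.

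From the Ct, 2 to the power of minus ΔΔCt was computed with BdGAPD and CK3, and thresholds were 2 and 0.5-fold. The SD of same-primer pairs is that of their differences about 0 divided by the square root of 2, and PEG-1h, whose Ct repeat those of another sample, was left out of it. A Ct carries no count, so depth is unknown. Members, gene lists and naming rules were chosen with earlier results of these data known. Named are the 5 highest and lowest genes at each time, between times and against the other metals, genes higher at both times, the 5 lowest of those lower at both, ER stress and zinc deficiency genes, the highest and lowest of other lists, same-primer genes and BdGAPD. Genes just inside or outside a threshold and BdbZIP24 and BdbZIP61 were added once their values were known. Alternative settings varied the control, reference, genes, threshold, amplification and source table. The calculation was tested on simulated Ct. It ran in Python 3.11.15 with pandas 2.3.3, numpy 2.4.6 and scipy 1.17.1, and figures were drawn with matplotlib 3.10.9.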

Additional observations from a re-analysis of the deposited data

Results flagged for a closer look

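BdbZIP41, a G-box factor class gene, was past a threshold in opposite directions at the 2 times, at -1.40 in Cd-24h and 1.66 in Cd-6h against CK3. Its Ct was 33.34 in Cd-24h and 31.48 in Cd-6h, against 29.98 in CK3. The difference between the times was not tested, since each time has 1 sample. BdbZIP42, amplified with the same primers, was at -0.61 in Cd-24h and -0.85 in Cd-6h.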

How the results depend on the processing

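The counts kept within 1.5 times of the reported ones with 1 gene of each same-primer pair, with amplification by 1.9 per cycle and, against the other metals, with their median or with Cu, Zn, Mn or Pb left out. They moved further with the control and the reference. With the 3 controls averaged, 62 genes were higher and 7 lower at 24 h, 62 and 7 at 6 h, and 54 and 4 at both times. With CK1 as control these pairs were 68 and 9, 71 and 11, and 64 and 7, and with CK2 they were 72 and 5, 72 and 8, and 67 and 4. With no reference gene they were 13 and 68, 4 and 80, and 4 and 66. Then 58 genes were higher and 2 lower at 24 h than at 6 h, and 0 were above and 57 below the other metals. Among genes with a Ct below 35, 18 were higher at 24 h, 15 at 6 h and 11 at both, and 15 were above and 1 below the other metals. At thresholds of 4 and 0.25, 14 genes were lower at 24 h, 17 were higher and 16 lower at 6 h, and 13 were higher and 9 lower at both times. Between the times 7 were then higher and 3 lower at 24 h, and 16 were above and 0 below the other metals. With the median of the 96 genes as reference, 18 genes were lower at 6 h, 11 at both times, 17 were lower at 24 h than at 6 h and 9 were below the other metals. From the deposited normalized table, 12 genes were higher and 21 lower at 24 h than at 6 h, and 7 were below the other metals.

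The median change at 24 h (0.18) became -1.78 with no reference, and that at 6 h (-0.18) became 1.57, 2.43 and 2.675 with the mean of the controls, CK1 and CK2. The median level against the other metals (0.58) became -2.54 with no reference (exact permutation p = 0.20) and was 0.26 to 1.23 otherwise (p from 0.08 to 0.69). For 9 genes the control and reference were also varied, each on its own, a choice made after seeing the data. With no reference BdbZIP38 turned to -0.28 at 24 h and -1.18 at 6 h, and at 6 h BdbZIP12 to -1.07, BdbZIP62 to -1.44 and BdbZIP90 to -0.90. BdbZIP4 turned to 1.19, 3.17 and 3.28 at 24 h and to 0.58, 2.56 and 2.67 at 6 h with the mean of the controls, CK1 and CK2. BdbZIP23 turned to 1.59, 3.49 and 4.04 at 24 h and to 1.57, 3.47 and 4.02 at 6 h. BdbZIP8, BdbZIP15 and BdbZIP43 kept the sign of every called change, though BdbZIP15 at 24 h was 0.38 with no reference, within 2-fold.

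The cause of these shifts was not tested. With 1 sample per condition, biological variation is unknown, and a Ct of 35 or more leaves a value less certain. No paired analysis was possible because each condition has 1 sample and its replicate number names no pairing.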
